A study of Equus asinus with 6 samples.

Results

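Polyamine metabolism genes were followed in a back muscle, longissimus dorsi, of Guangling donkeys, a Chinese breed of Equus asinus. The set was named as 9 genes by pathway membership, with earlier results of these data known, and 8 of them had a row under their own symbol among the 20873 genes of the deposited count table: ODC1, AMD1, SRM, SMS, SAT1, SMOX, OAZ2 and AZIN1. OAZ1 had no row under that name and is not analysed here. Muscle of high intramuscular fat (IMF) content gave 3 libraries and muscle of low IMF content gave 3, all from donkeys labelled 24 months old and frozen soon after slaughter. No label gives a measured fat content, a sex, a diet or a treatment. Nor does a label tie each library to its own animal. P-values therefore measure only the spread between these libraries, which may be technical.

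Polyamines (putrescine, spermidine and spermine) are small positively charged molecules that bind RNA and DNA and are needed for growth and protein synthesis. Ornithine decarboxylase (ODC1) makes putrescine from ornithine, S-adenosylmethionine decarboxylase (AMD1) supplies the aminopropyl groups, and spermidine synthase (SRM) and spermine synthase (SMS) attach them. Spermidine/spermine acetyltransferase (SAT1) marks polyamines for export or breakdown, spermine oxidase (SMOX) turns spermine back into spermidine, antizymes (OAZ1, OAZ2) deliver ODC1 to the proteasome and block uptake, and antizyme inhibitor (AZIN1) binds antizymes and frees ODC1. In fat cells of mice, SAT1 activity is known to draw on acetyl-CoA, the building block of fatty acids, and in mouse muscle SMOX is known as a gene that maintains fibre size.

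The libraries held 39052998 to 47494157 assigned reads. Each member had 239 to 8314 reads in a library, so counting error alone was at most 6.47% of a value, in SMOX. The summed level of 5 muscle fibre markers (CKM, ACTA1, MYLPF, TNNT3 and TTN) was 67169 to 114618 CPM (counts scaled to a common library total, with library sizes adjusted by trimmed means, TMM) in high IMF libraries and 86113 to 129272 CPM in low IMF libraries, so the fibre markers were present in all 6. Low IMF replicates 2 and 3 were much closer to each other than any other pair of libraries: their counts differed by a chi-square of 7.70 per degree of freedom, where the other pairs gave 118.4 to 559.6. That is above sampling noise, but it cannot show whether these libraries come from different animals. They were kept as separate libraries, and the 8 genes were also fitted with these libraries summed.

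Over all genes, edgeR's quasi-likelihood test called none of 15933 genes tested higher (0%) and none lower (0%) in high IMF muscle, with a threshold of 0.05 on the adjusted p. At an unadjusted p under 0.05 it had 4.53% of genes higher and 2.74% lower, and the DESeq2 Wald test called 1.16% of its 16775 genes in either direction. The authors' deposited table had 1.15% of its genes at an adjusted p under 0.05, none of them a member. All 8 members passed the filter on low counts, and none was called by edgeR, limma-voom or DESeq2. Of the 8, 6 had a positive log2 fold, against 51.2% of all genes tested, and the median was 0.28, against 0.0085 over all genes tested. SAT1 and AZIN1 reached an unadjusted p under 0.05, both upwards, and had all 3 high IMF libraries above all 3 low IMF libraries, a separation that 6.86% of all genes showed in that direction. On this TMM scale no member was separated downwards, which 6.1% of all genes were, and none was lower at an unadjusted p under 0.05. On the authors' FPKM, which scale by total reads alone, 3 members were separated upwards (SAT1, AZIN1 and OAZ2, against 10% of all genes) and 1 downwards (SRM, against 2.5%).

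**Figure D1:**
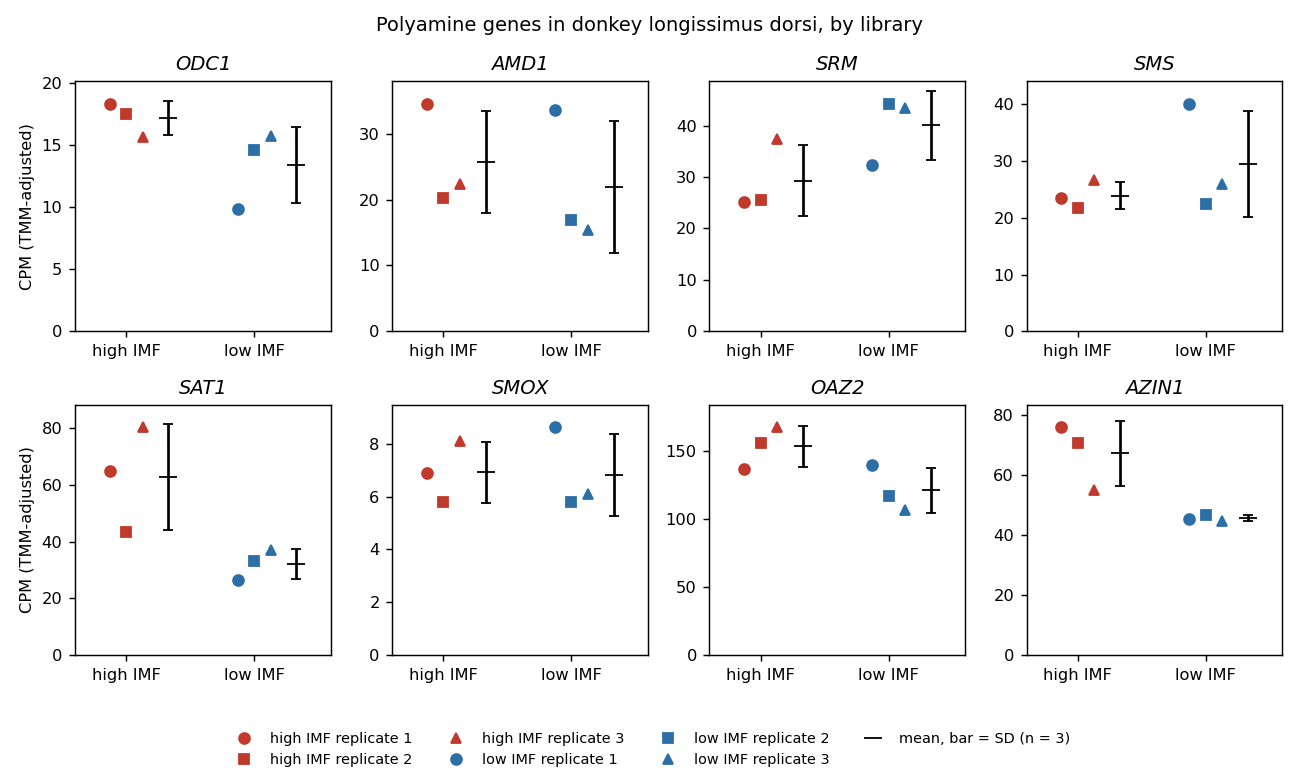
Level of each polyamine gene in CPM (linear axis from 0) in the 3 high IMF libraries (red) and the 3 low IMF libraries (blue), with the mean and SD of each group in black. SAT1 and AZIN1 are the 2 genes whose groups do not overlap on this scale, while low IMF replicate 1 lies apart from the other low IMF libraries in ODC1, AMD1, SRM, SMS, SMOX and OAZ2.

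SAT1, the acetyltransferase that starts polyamine breakdown, had the largest fold of the 8 between the groups. It measured 64.8, 43.3 and 80.3 CPM in high IMF replicates 1 to 3, against 26.4, 33.1 and 36.9 CPM in low IMF replicates 1 to 3. The lowest high IMF library thus lay above the highest low IMF library, and the high IMF libraries were the more widely spread. The means were 62.8 ± 18.6 CPM in high and 32.1 ± 5.34 CPM in low IMF muscle (SD, n = 3 each), a fitted ratio of 1.95 with a 95% interval of 1.29 to 2.95. The log2 fold was 0.97 ± 0.25 (SE), with an unadjusted p of 0.00631 and an adjusted p of 0.522 in edgeR's quasi-likelihood test. SAT1 ranked 192nd of the 15933 genes by p. Its adjusted p was 0.0833 in the DESeq2 Wald test and 0.57 in limma-voom, and 0.0837 in the authors' deposited table. With any 1 library left out its log2 fold stayed between 0.74 (high IMF replicate 3 left out) and 1.16 (high IMF replicate 2 left out).

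SMOX, the oxidase that acts directly on spermine, showed no such separation. Its libraries measured 6.89, 5.80 and 8.11 CPM in high IMF muscle, against 8.63, 5.80 and 6.10 CPM in low IMF muscle. The groups covered nearly the same range, and the highest value was that of low IMF replicate 1. The log2 fold was 0.02 (adjusted p = 0.993, edgeR). Its 95% interval, from -0.57 to 0.60, did not exclude changes within that range in either direction. The sign of the fold depended on single libraries and settings. PAOX, the peroxisomal oxidase that works on the products of SAT1, measured 5.45 ± 2.10 CPM in high and 4.10 ± 1.50 CPM in low IMF muscle (adjusted p = 0.911, edgeR), with overlap.

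AZIN1, the antizyme inhibitor, was the other separated gene. It measured 75.8, 70.8 and 55.0 CPM in high IMF muscle, against 45.2, 46.6 and 44.7 CPM in low IMF muscle. The 3 low IMF libraries lay within 2 CPM of each other, and high IMF replicate 3 was the nearest to them. The means were 67.2 ± 10.9 and 45.5 ± 0.988 CPM (SD, n = 3 each), a fitted ratio of 1.48 with a 95% interval of 1.13 to 1.93 and a log2 fold of 0.56 ± 0.16 (SE). The unadjusted p was 0.0107 and the adjusted p 0.525 in edgeR, 0.243 adjusted in DESeq2 and 0.244 in the authors' deposited table. With any 1 library left out the log2 fold was 0.45 to 0.68.

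OAZ2, an antizyme, measured 137.4, 156.0 and 167.7 CPM in high IMF muscle, against 139.8, 117.4 and 106.9 CPM in low IMF muscle. High IMF replicate 1 lay just below low IMF replicate 1, and the other values were apart. In the authors' FPKM the groups did not overlap, with 127.6 FPKM or more in high IMF muscle, against 125.1 FPKM or less in low IMF muscle. The log2 fold was 0.34 ± 0.18 (SE; adjusted p = 0.763, edgeR).

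ODC1, the enzyme that commits ornithine to polyamines, measured 18.3, 17.5 and 15.7 CPM in high IMF muscle, against 9.88, 14.6 and 15.7 CPM in low IMF muscle. High IMF replicate 3 and low IMF replicate 3 were level, and low IMF replicate 1 was the lowest. The log2 fold was 0.36 with a 95% interval from -0.14 to 0.86 (adjusted p = 0.825, edgeR), and it was 0.17 without low IMF replicate 1.

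AMD1, which commits S-adenosylmethionine to polyamines, split the libraries within each group. It measured 34.6, 20.2 and 22.4 CPM in high IMF muscle, against 33.6, 16.9 and 15.4 CPM in low IMF muscle. Replicate 1 was the highest of both groups, and the other high IMF libraries lay above the other low IMF libraries. The log2 fold of 0.23 (adjusted p = 0.943, edgeR) was 0.66 without low IMF replicate 1 (adjusted p = 0.546 or more with any 1 library left out) and -0.059 without high IMF replicate 1. A second row, LOC106835473, is described in the deposited table as the same enzyme in donkey, so reads of near-identical copies may have been split between both. That row measured 8.57, 6.92 and 6.31 CPM in high IMF muscle, against 9.30, 5.14 and 6.61 CPM in low IMF muscle, again highest in replicate 1 of each group. With both rows summed, a step added after the data were seen, the log2 fold of AMD1 was 0.19.

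The synthases that use the products of ODC1 and AMD1 lay on the opposite side of 0, without passing the test. SRM, which makes spermidine, measured 25.1, 25.4 and 37.3 CPM in high IMF muscle, against 32.3, 44.3 and 43.5 CPM in low IMF muscle. On this scale high IMF replicate 3 lay above low IMF replicate 1, and the other 2 libraries of each group were apart. In the authors' FPKM the groups did not overlap, with 22.5, 22.1 and 25.4 FPKM in high IMF muscle, against 25.9, 30.9 and 31.2 FPKM in low IMF muscle. The log2 fold was -0.45 ± 0.22 (SE; unadjusted p = 0.0773, adjusted p = 0.746, edgeR), a 1.37-fold higher fitted level in low IMF muscle. SMS, which makes spermine, measured 23.4, 21.8 and 26.6 CPM in high IMF muscle, against 40.1, 22.5 and 26.0 CPM in low IMF muscle. Only low IMF replicate 1 stood outside the range of the high IMF libraries. The log2 fold of -0.30 (adjusted p = 0.878, edgeR) was -0.032 without that library.

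Per gene length, in the authors' FPKM (reads scaled to gene length and to the total of assigned reads), the 8 genes covered a wide range of levels. Over the 6 libraries OAZ2 averaged 119.8 FPKM, SAT1 44.2, SRM 26.3, SMS 14.6, AZIN1 13.4, ODC1 8.02, AMD1 3.30 and SMOX 3.06 FPKM. OAZ2 was above SAT1 in 6 of 6 libraries with no overlap of their ranges. SRM was above SMS, AZIN1 above ODC1 and ODC1 above AMD1 within 6 of 6 libraries, though the ranges over libraries overlapped. SAT1 against SRM (4 of 6), SMS against AZIN1 (4 of 6) and AMD1 against SMOX (3 of 6) had no fixed order. The place of AMD1 holds for its own row only. LOC106835473, described as the same enzyme, averaged 4.62 FPKM and is not included in it. In low IMF replicate 1 that row alone measured 6.12 FPKM, against 5.32 FPKM for ODC1.

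The place of SAT1 in that order differed between the groups. Its ratio to SRM within a library, which needs no scaling between libraries, was 3.10, 2.04 and 2.59 in high IMF muscle, against 0.98, 0.90 and 1.02 in low IMF muscle. Every high IMF library thus had at least 2 SAT1 units per SRM unit, and every low IMF library had about 1. Against the summed FPKM of the 4 synthesis genes ODC1, AMD1, SRM and SMS, SAT1 stood at 1.30, 0.93 and 1.37 in high IMF muscle and at 0.43, 0.55 and 0.59 in low IMF muscle. AMD1 over SMS was 0.365, 0.230 and 0.209 in high IMF muscle, against 0.207, 0.186 and 0.147 in low IMF muscle, with high IMF replicate 3 and low IMF replicate 1 nearly touching. AZIN1 over OAZ2 overlapped, with 0.119 ± 0.0301 in high and 0.102 ± 0.0133 in low IMF muscle (SD, n = 3 each). These ratios were chosen after the values were seen and carry no test. AMD1 entered them by its own row, without LOC106835473.

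**Figure D2:**
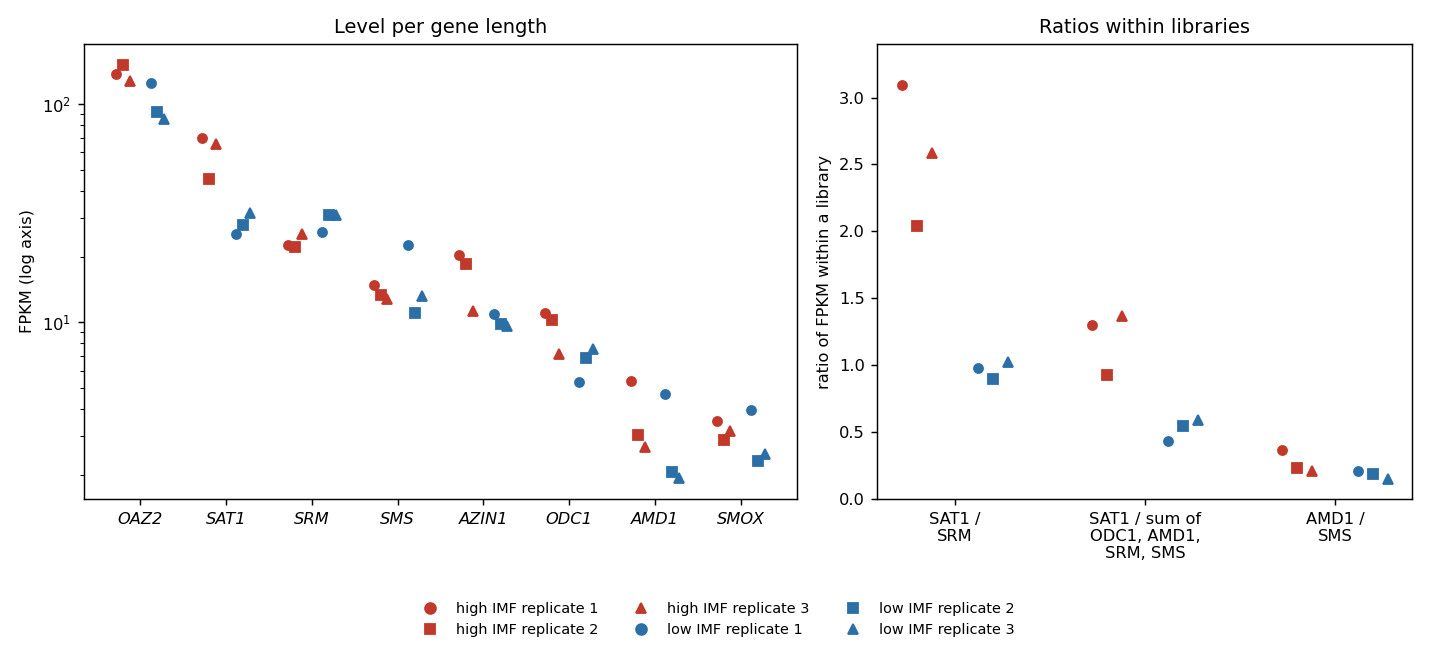
Left, FPKM of the 8 genes (log axis) by library, ordered by their mean over 6 libraries from OAZ2 (119.8 FPKM) to SMOX (3.06 FPKM). Right, ratios of FPKM within a library (linear axis from 0), where SAT1 over SRM is 2.04 or more in the high IMF libraries (red) and 1.02 or less in the low IMF libraries (blue).

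The steps around the polyamine core were read from 47 genes in 6 lists, of which 41 had a row and 38 were tested. None was called in edgeR, limma-voom or DESeq2 at an adjusted p under 0.05. Of the 38, 26 had a positive log2 fold with a median of 0.08. In edgeR 0 were higher and 1 was lower at an unadjusted p under 0.05, where 4.53% and 2.74% of all genes were.

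That 1 gene was MAT2B, the regulatory subunit of the methionine adenosyltransferase that makes S-adenosylmethionine. It measured 49.6, 49.8 and 50.5 CPM in high IMF muscle, against 66.6, 69.5 and 67.5 CPM in low IMF muscle. Both groups were tight and did not overlap. The log2 fold was -0.44 ± 0.13 (SE; unadjusted p = 0.0103, adjusted p = 0.523, edgeR; 0.193 adjusted in DESeq2). MAT2A, its catalytic partner, which was picked after its values were seen, measured 149.9, 94.6 and 106.5 CPM in high IMF muscle, against 141.3, 92.0 and 87.9 CPM in low IMF muscle, with overlap and with replicate 1 highest in both groups, as in AMD1. Of the 8 genes tested in the methionine cycle and salvage list 5 had a positive log2 fold and the median was 0.07. MRI1 and ENOPH1, both enzymes of methionine salvage, had log2 folds of 0.20 and 0.17 (adjusted p = 0.887 and 0.907, edgeR).

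The 7 tested genes of arginine and ornithine supply all had a positive log2 fold, with a median of 0.50, and the groups overlapped in each. AGMAT, annotated as agmatinase, measured 5.19, 19.4 and 42.9 CPM in high IMF muscle, against 9.61, 7.18 and 10.5 CPM in low IMF muscle. High IMF replicates 2 and 3 lay above the low IMF range and high IMF replicate 1 below it, and the log2 fold of 1.31 did not pass (adjusted p = 0.751, edgeR). The cationic amino acid transporter SLC7A1 measured 4.05 ± 1.01 and 2.87 ± 0.993 CPM and the mitochondrial arginase ARG2 6.75 ± 3.74 and 4.87 ± 1.65 CPM, each in high and then low IMF muscle (adjusted p = 0.867 and 0.901, edgeR).

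Of 5 tested genes of other antizymes and polyamine catabolism, 4 had a positive log2 fold (median 0.38). ALDH9A1, an aldehyde dehydrogenase, measured 13.6 ± 1.54 CPM in high and 10.5 ± 3.75 CPM in low IMF muscle, and the diamine oxidase AOC1 0.451 ± 0.146 and 0.257 ± 0.199 CPM (adjusted p = 0.878 and 0.894, edgeR). AOC1 had only 4 to 26 reads in a library, so its level is poorly measured. Of 7 tested transport genes 4 were positive (median 0.04). SLC18B1, a vesicular polyamine transporter, had a log2 fold of 0.36, CAV1, a caveolin, -0.48, and SLC3A2, a subunit of amino acid exchangers, -0.33 (adjusted p = 0.867 for each, edgeR).

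Spermidine is also used to form hypusine, a modified lysine, on the translation factor eIF5A. Of the 4 genes of this step 1 had a positive log2 fold (median -0.10). The hydroxylase DOHH measured 8.53 ± 1.84 CPM in high and 9.76 ± 0.451 CPM in low IMF muscle, and EIF5A2 6.05 ± 2.48 and 6.35 ± 1.19 CPM (adjusted p = 0.922 and 0.984, edgeR). EIF5A itself measured 206.6, 310.4 and 396.2 CPM in high IMF muscle, against 282.2, 358.1 and 353.8 CPM in low IMF muscle (adjusted p = 0.963, edgeR), so that high IMF libraries were both the lowest and the highest.

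Of 7 transcription factors of the MYC network and NRF2, 5 had a positive log2 fold (median 0.047). The MYC antagonist MXI1 was separated downwards without reaching an unadjusted p of 0.05. It measured 20.5, 22.1 and 23.5 CPM in high IMF muscle, against 24.6, 31.9 and 26.1 CPM in low IMF muscle (log2 fold -0.32, adjusted p = 0.752, edgeR). MYC, known to activate ODC1, measured 16.8, 16.9 and 11.4 CPM in high IMF muscle, against 7.69, 16.5 and 12.9 CPM in low IMF muscle (adjusted p = 0.919, edgeR). Its groups overlapped, and low IMF replicate 1 was the lowest library, as in ODC1. MAX, the partner of MYC, measured 18.0 ± 4.05 CPM in high and 20.9 ± 1.48 CPM in low IMF muscle (adjusted p = 0.901, edgeR).

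**Figure D3:**
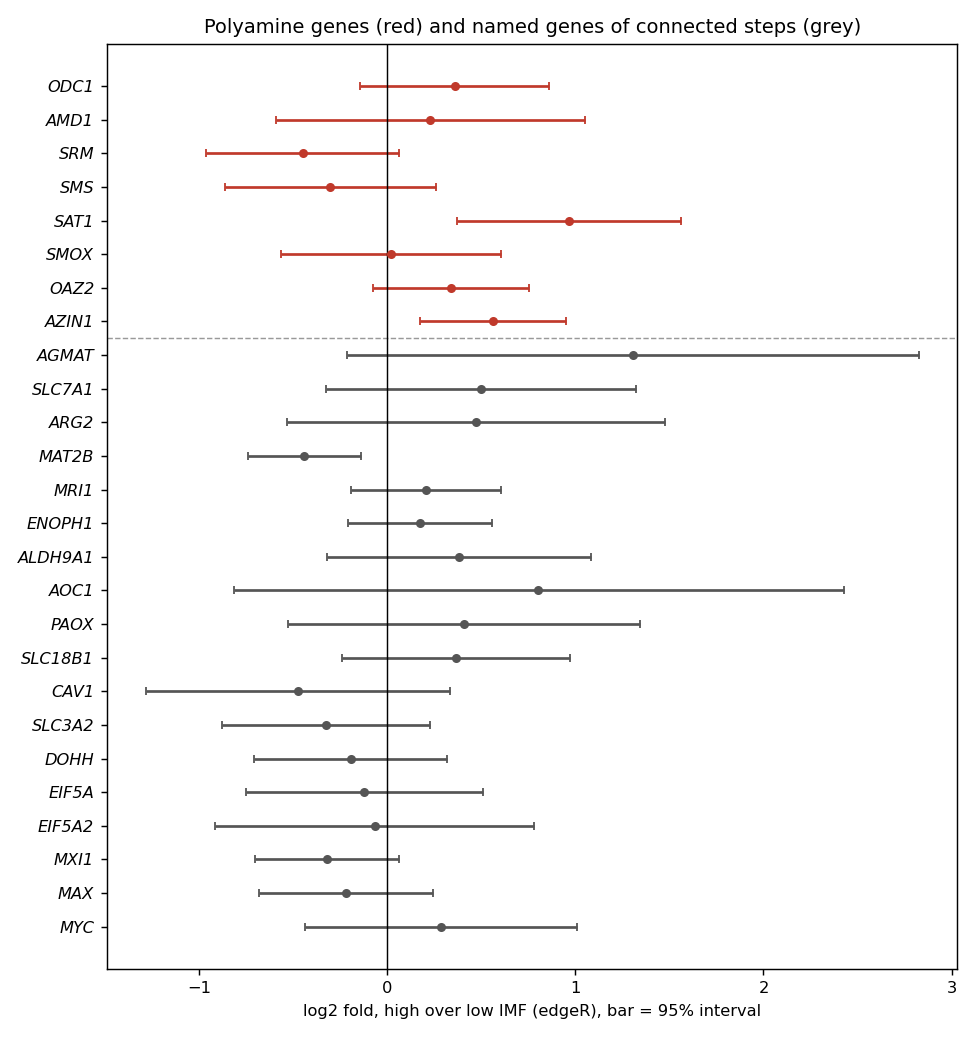
Log2 fold of high over low IMF muscle from edgeR (points) with its 95% interval (bars) for the 8 polyamine genes (red) and the 18 named genes of connected steps (grey). The intervals of SAT1 and AZIN1 lie above 0 and that of MAT2B below 0 before adjustment for the number of genes tested, and all other intervals include 0.

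Markers of other cell types were summed in each library, because in bulk tissue fewer cells of a type and less RNA per cell cannot be told apart. The 5 lymphocyte markers summed to 6.34 to 8.91 CPM in high and 1.29 to 4.59 CPM in low IMF muscle, the 5 endothelial markers to 312.2 to 549.4 and 634.6 to 664.9 CPM, and the 4 smooth muscle and pericyte markers to 523.3 to 747.3 and 801.6 to 1219 CPM. The sums of these 3 lists separated the groups, as SAT1 and AZIN1 did. Taken singly, 3 of the 5 lymphocyte markers (CD8B, MZB1 and ZAP70) were separated upwards, 4 of the 5 endothelial markers downwards (all but CDH5), and 0 of the 4 smooth muscle and pericyte markers. Over all genes tested, 6.86% were separated upwards and 6.1% downwards. The lymphocyte markers were few in reads, with CD8B at 0.049 to 0.25 CPM and MZB1 at 0.21 to 0.27 CPM in low IMF muscle. The sums of the other lists overlapped: 50.6 to 405.6 against 133.9 to 181.0 CPM for 5 adipocyte markers, 170.7 to 1068 against 230.4 to 574.6 CPM for 5 fibroblast and progenitor markers, 21.8 to 85.5 against 22.3 to 28.7 CPM for 5 myeloid markers, 4.84 to 6.87 against 5.43 to 5.57 CPM for 3 satellite cell markers, and 1.20 to 14.3 against 0.389 to 2.38 CPM for the 2 erythroid markers listed. The adipocyte sum joined markers of opposite direction. FABP4 had a log2 fold of -0.51, while LEP, CIDEC, PLIN1 and ADIPOQ had 2.87, 2.40, 1.93 and 1.17, with overlap of the groups in each. In the myeloid list, 2 of the 5 markers were separated upwards although their sum overlapped. SPI1 measured 8.68, 5.87 and 3.56 CPM in high IMF muscle, against 2.52, 2.23 and 2.09 CPM in low IMF muscle, and TYROBP 10.5, 7.54 and 4.61 CPM against 3.52, 3.81 and 3.21 CPM. Markers with a count of 0 in some libraries were LEP (1 library), CALCR (1) and ALAS2 (5). High IMF replicate 3 had the lowest sum of all 6 libraries in 6 lists (adipocyte, fibroblast, myeloid, endothelial, smooth muscle and satellite cell). AZIN1 was lowest there among the high IMF libraries. On the TMM scale SAT1 was highest there (80.3 CPM, against 64.8 CPM in high IMF replicate 1). In the authors' FPKM SAT1 was highest in high IMF replicate 1 (69.6 FPKM, against 65.6 FPKM in high IMF replicate 3). The part of any of these lists in the values of the polyamine genes was not tested.

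**Figure D4:**
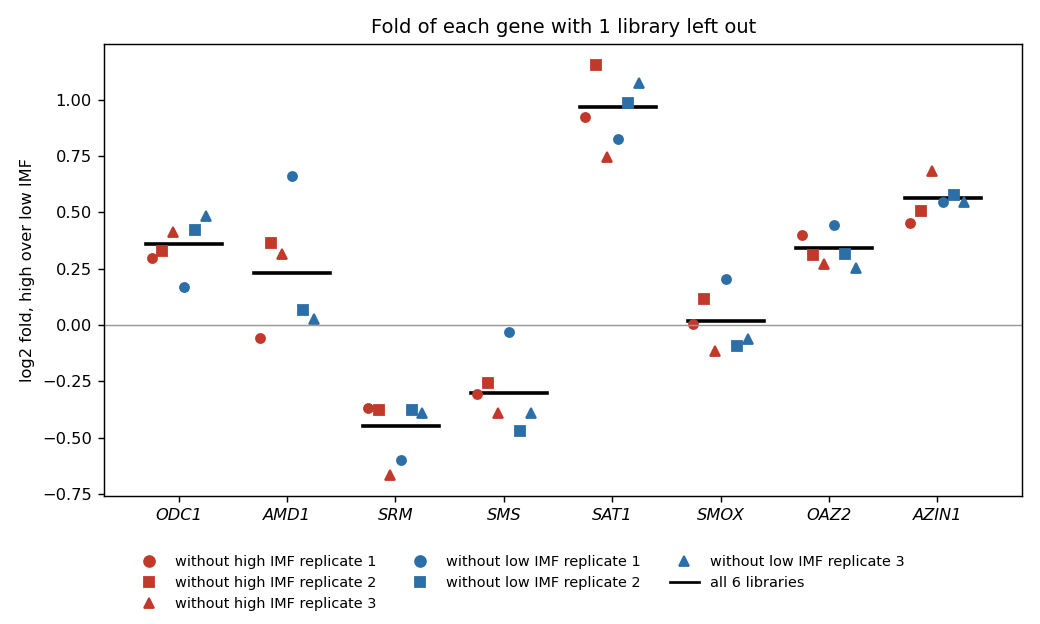
Log2 fold of high over low IMF muscle for each polyamine gene with all 6 libraries (black line) and with each library left out in turn (symbols). SAT1 stays between 0.74 and 1.16 and AZIN1 between 0.45 and 0.68, AMD1 spans -0.059 to 0.66, and SMS reaches -0.032 without low IMF replicate 1.

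Similarity of pattern over the 6 libraries was measured by Pearson's r of log2 CPM, as a description of 6 points that share their libraries. For the 4 enzymes SAT1, AMD1, ODC1 and SMOX, the genes of most similar pattern came from 9809 other named genes of at least 5 CPM. For SAT1 these were the histone methyltransferase gene WHSC1, TAF6L and the kinase gene VRK2 (r = 0.996, 0.993 and 0.988). WHSC1 followed the order of SAT1 over a narrower range, with 33.5, 28.6 and 35.8 CPM in high IMF muscle, against 24.8, 26.1 and 28.0 CPM in low IMF muscle. For AMD1 they were CSRNP2, the telomere protein gene TERF2IP and the water channel gene AQP4 (r = 0.993, 0.987 and 0.987). AQP4 measured 137.1, 30.1 and 46.1 CPM in high IMF muscle, against 87.4, 20.2 and 16.5 CPM in low IMF muscle, with replicate 1 highest in both groups. For ODC1 they were the collagen prolyl hydroxylase subunit P4HA2, CTIF and the endothelial surface gene CD93 (r = 0.997, 0.993 and 0.991), and for SMOX they were FAF2, SLC2A11 and FRRS1 (r = 0.994, 0.991 and 0.988). With so many genes and 6 libraries, 30 to 58 genes had r over 0.95 with each of the 4.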

How the data were processed

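RNA of 6 muscle libraries was measured by sequencing; groups and replicate numbers came from the sample titles. The authors deposited whole-number read counts per gene and FPKM values. Per the submitters' processing notes, HISAT2 was used with mm9, a mouse build, while the deposited gene descriptions are of donkey and horse, so the genome behind the counts is uncertain and no coordinates are given. No source used here names the counter, its annotation or its use of strand. The labels name 2 sequencers. The log2 fold, the ratio (fold change) and the p-values in the authors' deposited table are their own comparison.

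Counts were tested with edgeR 4.0.16 in R 4.3.3: TMM, filterByExpr, quasi-likelihood F-test, Benjamini-Hochberg over all 15933 genes tested, threshold 0.05. Standard errors and 95% intervals were derived from the F statistic. The same fit was checked on simulated data. Other settings were DESeq2 1.42.0 (size factors, Wald test), limma 3.58.1 (voom), library size only, 2 other low-count filters (none; a mean of at least 1 CPM with at least 10 reads in 3 libraries), the replicate number as a block, and libraries left out or summed. Symbols of LOC rows came by gene identifier from a RefSeq gene table of donkey, assembly EquAss-T2T_v2, used for names only.

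Members and lists were chosen with earlier results of these data known. The text names all members, the up to 3 genes of smallest p in each list and any with an unadjusted p under 0.05, and the 3 genes most correlated with each of SAT1, AMD1, ODC1 and SMOX. A gene of the lists is not reported here.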

Additional observations from a re-analysis of the deposited data

How the results depend on the processing

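Over all settings run, 0 of the 8 polyamine genes and 0 of the connected genes were called. Genes called over the whole table were 114 higher and 80 lower in the DESeq2 Wald test, against 0 and 0 in edgeR; with 1 library left out edgeR called 0 higher and 0 to 3 lower, the 3 without high IMF replicate 1. Of 113 refits of single polyamine genes, 107 kept the direction and the side of the threshold and 6 changed sign. Leaving out 1 library in turn gave AMD1 log2 folds of -0.059 (high IMF replicate 1 left out) to 0.66 (low IMF replicate 1 left out). It gave SMOX -0.11 (high IMF replicate 3 left out) to 0.21 (low IMF replicate 1 left out), also negative for replicates 2 (-0.092) and 3 (-0.062) of low IMF. SMOX was -0.0053 in limma-voom and -0.076 where the near-alike low IMF pair was summed. The cause of these sign changes was not tested. Library size alone in place of TMM moved the median log2 fold over all tested genes to 0.15, against 0.0085, and that of SAT1 to 1.09 and of AZIN1 to 0.73. The labels do not say whether the replicate numbers pair libraries. Deviations from the group means correlated at 0.23, 0.19 and 0.04 for the same numbers 1 to 3. Libraries of different number gave -0.24 to 0.24. So few libraries cannot decide whether the numbers pair them. With the number as a block, 0 genes were called and SAT1 had a log2 fold of 0.94 (adjusted p = 0.49). With low IMF replicates 2 and 3 summed, the log2 fold was 1.03 for SAT1 and 0.56 for AZIN1. The unadjusted p was 0.0157 and 0.042, and the adjusted p 0.999 for each (edgeR). With 3 libraries a group, spread between libraries and not counting error limited the 8 genes.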
